A study of Mus musculus with 8 samples.

Results

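Potassium channel genes were described across 8 mouse brain libraries, 4 labelled Uhrf2 knockout (KO) and 4 labelled wild type (WT), all of the C57BL/6 strain and all made from polyadenylated RNA. Members were the genes of the deposited count table whose symbol begins with Kcn, goes on with lower-case letters for the subfamily and ends in a number. This gave 76 of the 17613 genes in the table, under 75 symbols, since Kcnb2 is listed under a pair of identifiers. Uhrf2 encodes a nuclear protein that recognises modified cytosine in CpG sites, and the title of the series ties it to local 5-methylcytosine and to spontaneous seizures. The age and sex of the mice, the design of the deletion and the number of animals behind the libraries are not given in the labels or files used here.

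Potassium channels let potassium leave or enter the cell, which sets the resting potential of a neuron, ends each action potential and limits how fast the cell can fire again. The pore-forming proteins fall into voltage-gated, calcium- or sodium-activated, inward-rectifying and leak channels, and auxiliary subunits bind to them and change their gating or their number at the membrane. Mutations in several of them, among them KCNT1, KCNA1 and KCNH1, cause epilepsy in people.

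The targeted gene was read before the channels, as a check of the labels. Uhrf2 had 86.4, 88.6, 88.4 and 91.8 CPM (counts per 1000000 counts of the library, after TMM scaling) in the libraries labelled KO, against 58.0, 47.7, 57.2 and 58.9 CPM in those labelled WT. It was thus higher in every library labelled KO, at a log2 fold change of 0.68 (SE 0.06, edgeR's quasi-likelihood adjusted p = 5.45e-06, Benjamini-Hochberg). An exact permutation test, two-sided over the 70 splits, gave p = 0.0286, the smallest it can give. A higher level goes against the label of a knockout, and counts per gene do not tell reads inside a deleted part from reads outside it. The groups are therefore called by their labels, and each direction below is that of the libraries labelled KO relative to those labelled WT. Whether labels were exchanged between the groups was not tested, and an exchange would turn every direction given here.

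The libraries held 13550420 to 19065173 counts in those labelled KO and 11891350 to 19773921 in those labelled WT, so that 3 counts came to between 0.152 and 0.252 CPM. Both libraries numbered 1 stood apart on the second principal component (19.8% of the variance), at 13.1 for KO and 21 for WT with the other 6 between -9.02 and -2.49. Results are therefore also given without them where that changes a call. Of 15902 genes tested, 228 passed the threshold, an adjusted p under 0.05. None of the markers listed for neurons of brain regions, glia or vessels was at 0. In RNA from whole tissue, fewer cells of a type and less RNA per cell cannot be told apart.

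Across the potassium channel genes, 4 rose in the libraries labelled KO, 0 fell and 72 did not pass the threshold. The 4 were Kcnip3 and Kcnip1, which encode calcium-binding KChIP proteins of the Kv4 channel complex, Kcnj4, which encodes the inward rectifier Kir2.3, and Kcnh1, which encodes the voltage-gated channel EAG1. They were higher by 1.17- to 1.26-fold. All 76 genes passed the filter on low counts, so the share that passed was 5.26%, where 1.43% of all tested genes passed in either direction, 1.14% higher and 0.289% lower. No test of this share was made. At an unadjusted p under 0.05 there were 18 higher genes and 1 lower, 25% of the members and 12.6% of all tested genes, and DESeq2 and limma-voom also called 0 lower, with 6 and 4 higher, where they called 1.81% and 1.55% of all genes. Leaving out KO replicate 2 gave 10 called genes, 9 higher and 1 lower, which is 13.2% of the members, beside 2.03% of all genes tested without it. Each other fit without 1 library gave 3 or 4 called genes and 0 lower. That is 3.95% or 5.26% of the members, beside 0.689% to 1.24% of all genes tested.

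**Figure D1:**
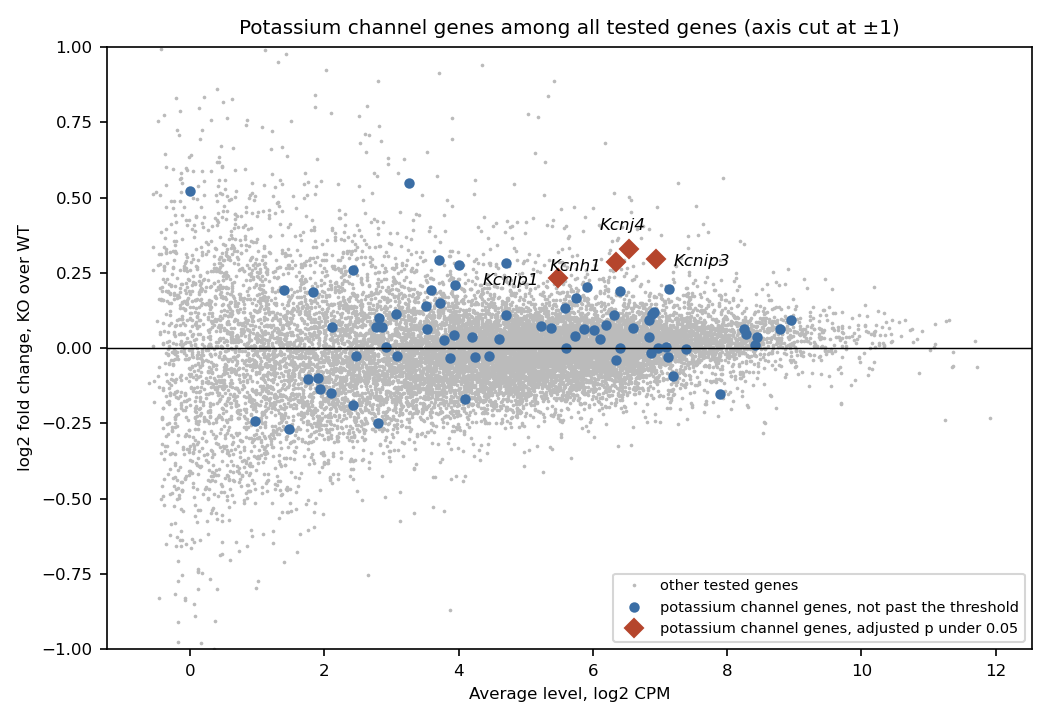
Each point is 1 tested gene, with its average log2 CPM on the horizontal axis and its log2 fold change, KO over WT as labelled, on the vertical axis; 22 other genes lie beyond the axis and 0 potassium channel genes do. The 4 genes that rose (diamonds) lie between 0.23 and 0.33, and the other potassium channel genes are shown as circles.

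Promoter sequences of the genes that rose are shown because Uhrf2 is known for binding DNA at CpG sites. They are the 250 bases before a RefSeq transcript start on GRCm38.p6, written on the strand of the gene, with each CpG in capitals. For Kcnip3 and Kcnip1, which have 3 starts each, the start with the most CpG is shown, and for Kcnip3 also the one with the fewest.
Kcnj4, chr15:79505242-79505491, minus strand, 35 CpG: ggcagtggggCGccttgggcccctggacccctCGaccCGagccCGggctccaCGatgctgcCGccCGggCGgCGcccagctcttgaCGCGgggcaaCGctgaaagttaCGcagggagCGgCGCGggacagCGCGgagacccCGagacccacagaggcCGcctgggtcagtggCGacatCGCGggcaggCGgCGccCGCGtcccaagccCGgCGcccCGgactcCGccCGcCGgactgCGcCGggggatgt
Kcnh1, chr1:192190527-192190776, plus strand, 17 CpG: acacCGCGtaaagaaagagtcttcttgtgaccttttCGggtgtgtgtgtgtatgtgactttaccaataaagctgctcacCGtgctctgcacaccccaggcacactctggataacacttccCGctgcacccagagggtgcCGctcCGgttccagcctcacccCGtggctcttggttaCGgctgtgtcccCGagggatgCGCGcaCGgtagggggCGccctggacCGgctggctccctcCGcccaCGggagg
Kcnip3, chr2:127482500-127482749, minus strand, 23 CpG: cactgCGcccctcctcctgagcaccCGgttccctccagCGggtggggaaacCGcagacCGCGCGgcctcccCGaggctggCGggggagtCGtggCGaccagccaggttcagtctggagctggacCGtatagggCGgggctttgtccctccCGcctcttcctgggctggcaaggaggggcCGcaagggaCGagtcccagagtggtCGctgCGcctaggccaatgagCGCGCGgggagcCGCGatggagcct
Kcnip3, chr2:127521393-127521642, minus strand, 2 CpG: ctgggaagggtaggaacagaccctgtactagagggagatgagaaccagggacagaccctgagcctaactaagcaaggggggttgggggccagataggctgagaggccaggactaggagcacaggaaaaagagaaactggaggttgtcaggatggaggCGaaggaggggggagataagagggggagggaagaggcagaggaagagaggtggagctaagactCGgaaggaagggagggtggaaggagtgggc
Kcnip1, chr11:33843687-33843936, minus strand, 12 CpG: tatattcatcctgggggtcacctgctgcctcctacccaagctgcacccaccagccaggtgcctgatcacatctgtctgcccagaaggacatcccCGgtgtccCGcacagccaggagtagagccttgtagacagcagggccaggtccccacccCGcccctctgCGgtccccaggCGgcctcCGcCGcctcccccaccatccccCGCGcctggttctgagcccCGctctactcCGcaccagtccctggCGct

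These windows run from 35 CpG at Kcnj4 down to 2 CpG at the poorest Kcnip3 start. RefSeq promoters were found for 53 of the 75 symbols, 77 windows in all. Their median was 8 CpG (quartiles 4 and 17), beside 6 (quartiles 2 and 16) over all 32851 promoters of the table. The cyclic AMP response element TGACGTCA, which reads the same on both strands, was in 0 of the 77 windows and in 1.55% of all promoters. Its shorter form TGACG, searched on both strands and contained in the full element, was in 12 windows (15.6%) and in 17.8% of all promoters. The 12 belonged to Kcna6, Kcnab2, Kcnc1, Kcnc4, Kcne2, Kcne4, Kcnh5, Kcnj4, Kcnj8, Kcnj13, Kcnn1 and Kcnt2. Of these, Kcne2, Kcne4, Kcnj8 and Kcnt2 had negative log2 fold changes. Of the genes that rose only Kcnj4 held TGACG, and no window of Kcnh1, Kcnip1 or Kcnip3 did. Counts per gene do not tell the starts of Kcnip3 or Kcnip1 apart, and methylation of these windows is not analysed here.

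The genes of the Kv4-binding KChIP proteins held 2 of the 4 that rose. Kcnip3 (ENSMUSG00000079056, chr2:127456498-127522094, minus strand, GRCm38) encodes KChIP3, also known as DREAM, which binds Kv4 channels at the membrane and the prodynorphin promoter in the nucleus. It stood at 132, 132, 140 and 139 CPM in the libraries labelled KO, against 107, 113, 112 and 112 CPM in those labelled WT. The groups did not overlap, and the gap between them was wider than the spread within either. Kcnip3 rose by 0.29 on the log2 scale (SE 0.04), or 1.23-fold, with an adjusted p of 0.000615 by edgeR, and it passed in all 18 alternatives tried, at up to 0.00523 with 1 library left out.

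Kcnip1 (ENSMUSG00000053519, chr11:33629339-33993152, minus strand) encodes KChIP1, which is found mainly in GABAergic interneurons. Its levels were 48.5, 49.5, 49.5 and 44.1 CPM in the libraries labelled KO, against 42.0, 39.5, 42.6 and 39.4 CPM in those labelled WT. The groups did not overlap, but the lowest library labelled KO lay close above the highest labelled WT. It rose by 0.23 (SE 0.06), 1.17-fold, at an adjusted p of 0.0427 by edgeR. That call was lost in 7 of the 8 fits without 1 library, all but the fit without KO replicate 4, at up to 0.158 without KO replicate 3. Without both libraries numbered 1 the adjusted p by edgeR was 0.0848, and with upper-quartile factors it was 0.0523.

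Neither of the other KChIP genes passed. Kcnip2, the KChIP gene with the highest level per length, averaged 116 ± 14.1 CPM in the libraries labelled KO and 113 ± 7.81 CPM in those labelled WT (SD, n = 4 each), at a log2 fold change of 0.04 that turned to -0.01 without KO replicate 3. Kcnip4 averaged 80.2 ± 3.56 CPM in the libraries labelled KO and 82.6 ± 3.62 CPM in those labelled WT, at -0.04 (SE 0.05). The intervals of both include 0.

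The pore-forming Kv4 channels that KChIP proteins bind carry the A-type current, which opens below the firing threshold. Kcnd3, which encodes Kv4.3, stood at 158, 143, 147 and 153 CPM in the libraries labelled KO, against 147, 125, 127 and 126 CPM in those labelled WT. The groups overlapped only through WT replicate 1, which lay well above the other libraries labelled WT. Its log2 fold change was 0.20 (SE 0.05) and the adjusted p by edgeR was 0.0731, and 0.00652 without WT replicate 1. The call was also made without KO replicate 2, without both libraries numbered 1, with DESeq2 and with GC content and length trends removed, and it was furthest off without WT replicate 3, at 0.225. Kcnd2, which encodes Kv4.2, had the highest level per length of the 3 and a log2 fold change of -0.09 (SE 0.05). It averaged 142 ± 4.89 CPM in the libraries labelled KO and 151 ± 12.1 CPM in those labelled WT. Kcnd1, which encodes Kv4.1, averaged 15.4 ± 0.54 CPM in the libraries labelled KO and 14.95 ± 1.06 CPM in those labelled WT, at 0.04 (SE 0.08).

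**Figure D2:**
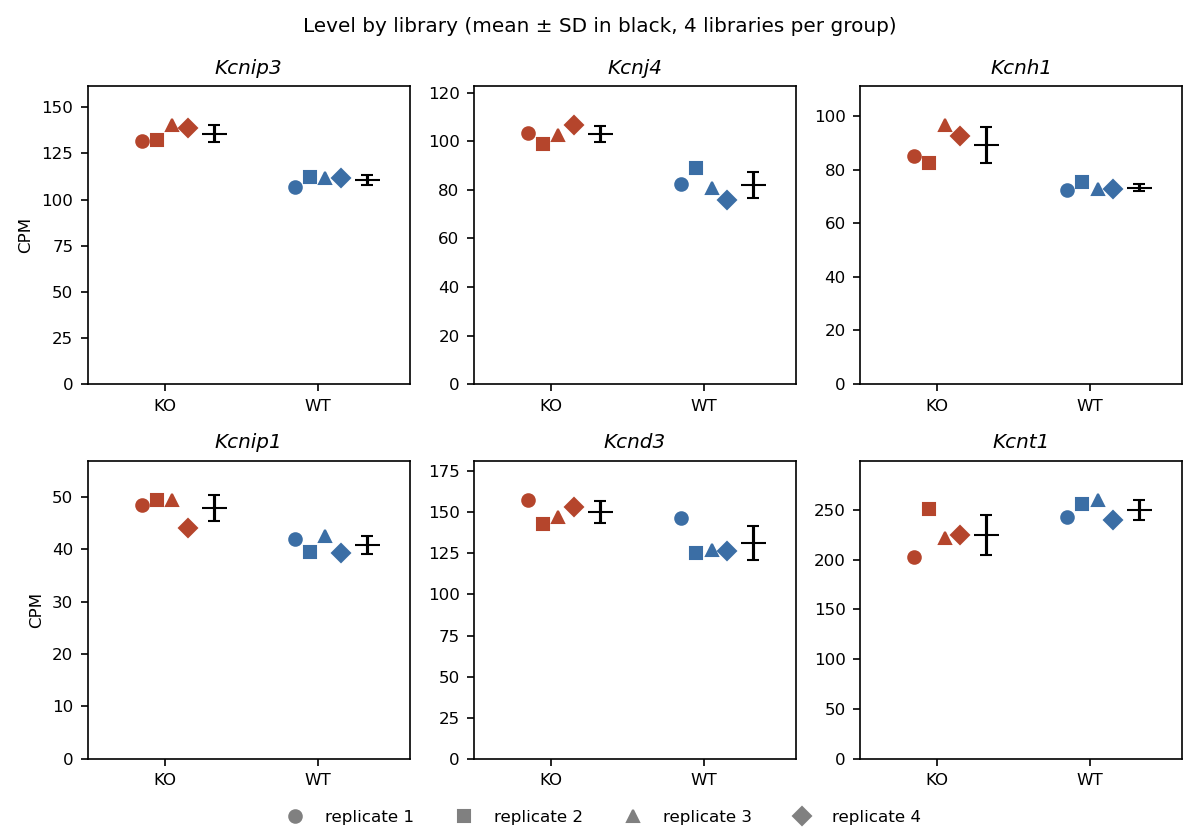
CPM of 6 potassium channel genes in each library, with those labelled KO on the left of each panel and those labelled WT on the right; marker shapes give the replicate number and black bars the mean ± SD of 4 libraries. In the panels of Kcnip3, Kcnj4, Kcnh1 and Kcnip1 every library labelled KO lies above every library labelled WT, whereas Kcnd3 and Kcnt1 overlap.

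Kcnj4 (ENSMUSG00000044216, chr15:79483714-79505241, minus strand) had the largest change of the genes that rose. Its product Kir2.3 passes potassium near the resting potential and holds neurons of the forebrain hyperpolarised. It had 103, 98.9, 103 and 107 CPM in the libraries labelled KO, against 82.3, 88.9, 80.8 and 75.8 CPM in those labelled WT, with no overlap. Kcnj4 rose by 0.33 (SE 0.05), 1.26-fold, at an adjusted p of 0.00114 by edgeR, and passed in all 18 alternatives, at up to 0.00872 without KO replicate 4.

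The other 12 inward rectifiers did not pass, and 8 of these 12 had a positive log2 fold change. Kcnj11, which encodes the pore Kir6.2 of the ATP-sensitive channel, had 18.6, 17.2, 16.8 and 17.5 CPM in the libraries labelled KO, against 15.5, 14.8, 13.8 and 13.99 CPM in those labelled WT. Those groups did not overlap, yet the adjusted p by edgeR was 0.0788, at a log2 fold change of 0.28 (SE 0.07). Kcnj6, which encodes the G protein-gated GIRK2, had 17.2, 11.2, 14.4 and 14.8 CPM in the libraries labelled KO, against 12.95, 11.03, 10.99 and 12.1 CPM in those labelled WT. KO replicate 2 lay within the WT range, and without it the adjusted p by edgeR was 0.0368. The fit with all libraries gave 0.252 at 0.29 (SE 0.11), and the fit without KO replicate 1 gave 0.502. The GIRK partners Kcnj3, at -0.03 (SE 0.07), and Kcnj9, at 0.00 (SE 0.05), did not pass.

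Kcnj10, which encodes Kir4.1 of astrocytes, had the highest level per length of the inward rectifiers. It averaged 355 ± 9.01 CPM in the libraries labelled KO and 346 ± 2.69 CPM in those labelled WT (SD, n = 4 each), at a log2 fold change of 0.04 (SE 0.04). Its partner Kcnj16, which encodes Kir5.1, averaged 42.3 ± 2.90 CPM in the libraries labelled KO and 40.5 ± 2.16 CPM in those labelled WT, at 0.07 (SE 0.06). Of 14 astrocyte markers 0 passed by edgeR or limma-voom and 1 by DESeq2, with 3 at an unadjusted p under 0.05 and a median of -0.05, and their summed level was 6200 to 6690 CPM in the libraries labelled KO and 6560 to 6700 CPM in those labelled WT. Kcnj3 and Kcnj13 share 31.08% and 49.06% of their exon bases with another gene on the opposite strand, so part of their counts is uncertain.

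Kcnh1 (ENSMUSG00000058248, chr1:192190774-192510159, plus strand) was the member of the EAG, ERG and ELK group that rose. It had 84.9, 82.5, 96.7 and 92.6 CPM in the libraries labelled KO, against 72.5, 75.4, 72.7 and 72.7 CPM in those labelled WT. The libraries labelled WT lay close together while those labelled KO spread more widely, and the groups did not overlap. Kcnh1 rose by 0.28 (SE 0.05), 1.22-fold, at an adjusted p of 0.00589 by edgeR, and passed in all 18 alternatives, at up to 0.0373 without KO replicate 3.

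Its closest relative Kcnh5, which encodes EAG2, had 12.9, 7.64, 11.9 and 12.96 CPM in the libraries labelled KO, against 8.83, 5.94, 7.44 and 9.0 CPM in those labelled WT. The replicate numbered 2 was the lowest of both groups, and the KO one lay within the WT range. Its log2 fold change of 0.55 (SE 0.17) was the largest of all 76 genes, but the adjusted p by edgeR was 0.181. That p was 0.00484 without KO replicate 2 and 0.411 without WT replicate 3. The ELK gene Kcnh3, with the highest level per length in the group, averaged 118 ± 7.54 CPM in the libraries labelled KO and 111 ± 9.66 CPM in those labelled WT, at 0.09 (SE 0.06). Of the ERG genes, Kcnh2 had 0.08 (SE 0.05), Kcnh6 0.19 (SE 0.15) and Kcnh7 0.00 (SE 0.12) on the log2 scale. In all, 6 of the 7 genes had a positive log2 fold change and 1 passed.

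Both sodium-activated channel genes had negative log2 fold changes, and neither passed. Kcnt1 (ENSMUSG00000058740, chr2:25863734-25918273, plus strand) encodes Slack, which carries a slow potassium current after bursts of firing. It had 202, 251, 222 and 225 CPM in the libraries labelled KO, against 243, 256, 260 and 240 CPM in those labelled WT. Of the libraries labelled KO, 3 lay below every library labelled WT and KO replicate 2 lay among them. Its log2 fold change was -0.15 (SE 0.05), with an unadjusted p of 0.0122 and an adjusted p of 0.229 by edgeR. Without KO replicate 2 the adjusted p by edgeR was 0.0234, and without WT replicate 3 it was 0.481. Kcnt1 was the only member whose 95% interval lay below 0 with all libraries. Kcnt2, which encodes Slick, averaged 16.1 ± 2.53 CPM in the libraries labelled KO and 18.2 ± 2.23 CPM in those labelled WT, at -0.17 (SE 0.11).

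Classical voltage-gated channels of the Kv1, Kv2 and Kv3 subfamilies held no gene that passed by edgeR, nor did Kv4. Among them 3 genes had an unadjusted p under 0.05, DESeq2 called 2, Kcnd3 and Kcnc4, and limma-voom called 0. Of these 16 listed genes 12 had a positive value, and the median log2 fold change was 0.06. Kcna1 (Kv1.1) and Kcna2 (Kv1.2), which sit beside the node of Ranvier and at nerve endings, had 0.06 (SE 0.04) and 0.06 (SE 0.09). Kcna1 averaged 310 ± 7.22 CPM in the libraries labelled KO and 297 ± 17.6 CPM in those labelled WT (SD, n = 4 each), and Kcna2 averaged 59.7 ± 7.37 CPM in the libraries labelled KO and 57.3 ± 6.15 CPM in those labelled WT. Kcna4 (Kv1.4), an inactivating channel of axons, averaged 26.9 ± 2.06 CPM in the libraries labelled KO and 25.05 ± 1.56 CPM in those labelled WT, at 0.11 (SE 0.07). All 6 Kv1 genes had a positive value between 0.06 and 0.11, and none passed by edgeR, DESeq2 or limma-voom, with 0 at an unadjusted p under 0.05. Kcna6 shares 39.61% of its exon bases with an antisense gene.

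Kcnb2 (Kv2.2), a delayed rectifier, summed over both of its identifiers, averaged 12.3 ± 2.40 CPM in the libraries labelled KO and 13 ± 1.94 CPM in those labelled WT, at -0.07 (SE 0.13). How reads were divided between the identifiers is not given in the sources used here.

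Kv3 channels close fast and let interneurons and auditory neurons fire at high rates. Kcnc4 (Kv3.4) had 83.7, 91.7, 92.3 and 94.0 CPM in the libraries labelled KO, against 74.1, 77.8, 81.3 and 83.9 CPM in those labelled WT. The lowest library labelled KO lay just under the highest labelled WT, and the adjusted p by edgeR was 0.0781 at a log2 fold change of 0.19 (SE 0.05). It passed with DESeq2 and without KO replicate 1 (adjusted p = 0.0328 by edgeR), and was furthest off without KO replicate 4, at 0.222. Kcnc1 (Kv3.1) averaged 343 ± 15.01 CPM in the libraries labelled KO and 340 ± 10.5 CPM in those labelled WT. Its log2 fold change was 0.01 (SE 0.04) and turned negative in 5 alternatives. Of 12 markers of fast-spiking and other interneurons 0 passed by edgeR, DESeq2 or limma-voom, with 2 at an unadjusted p under 0.05 and a median of 0.07.

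**Figure D3:**
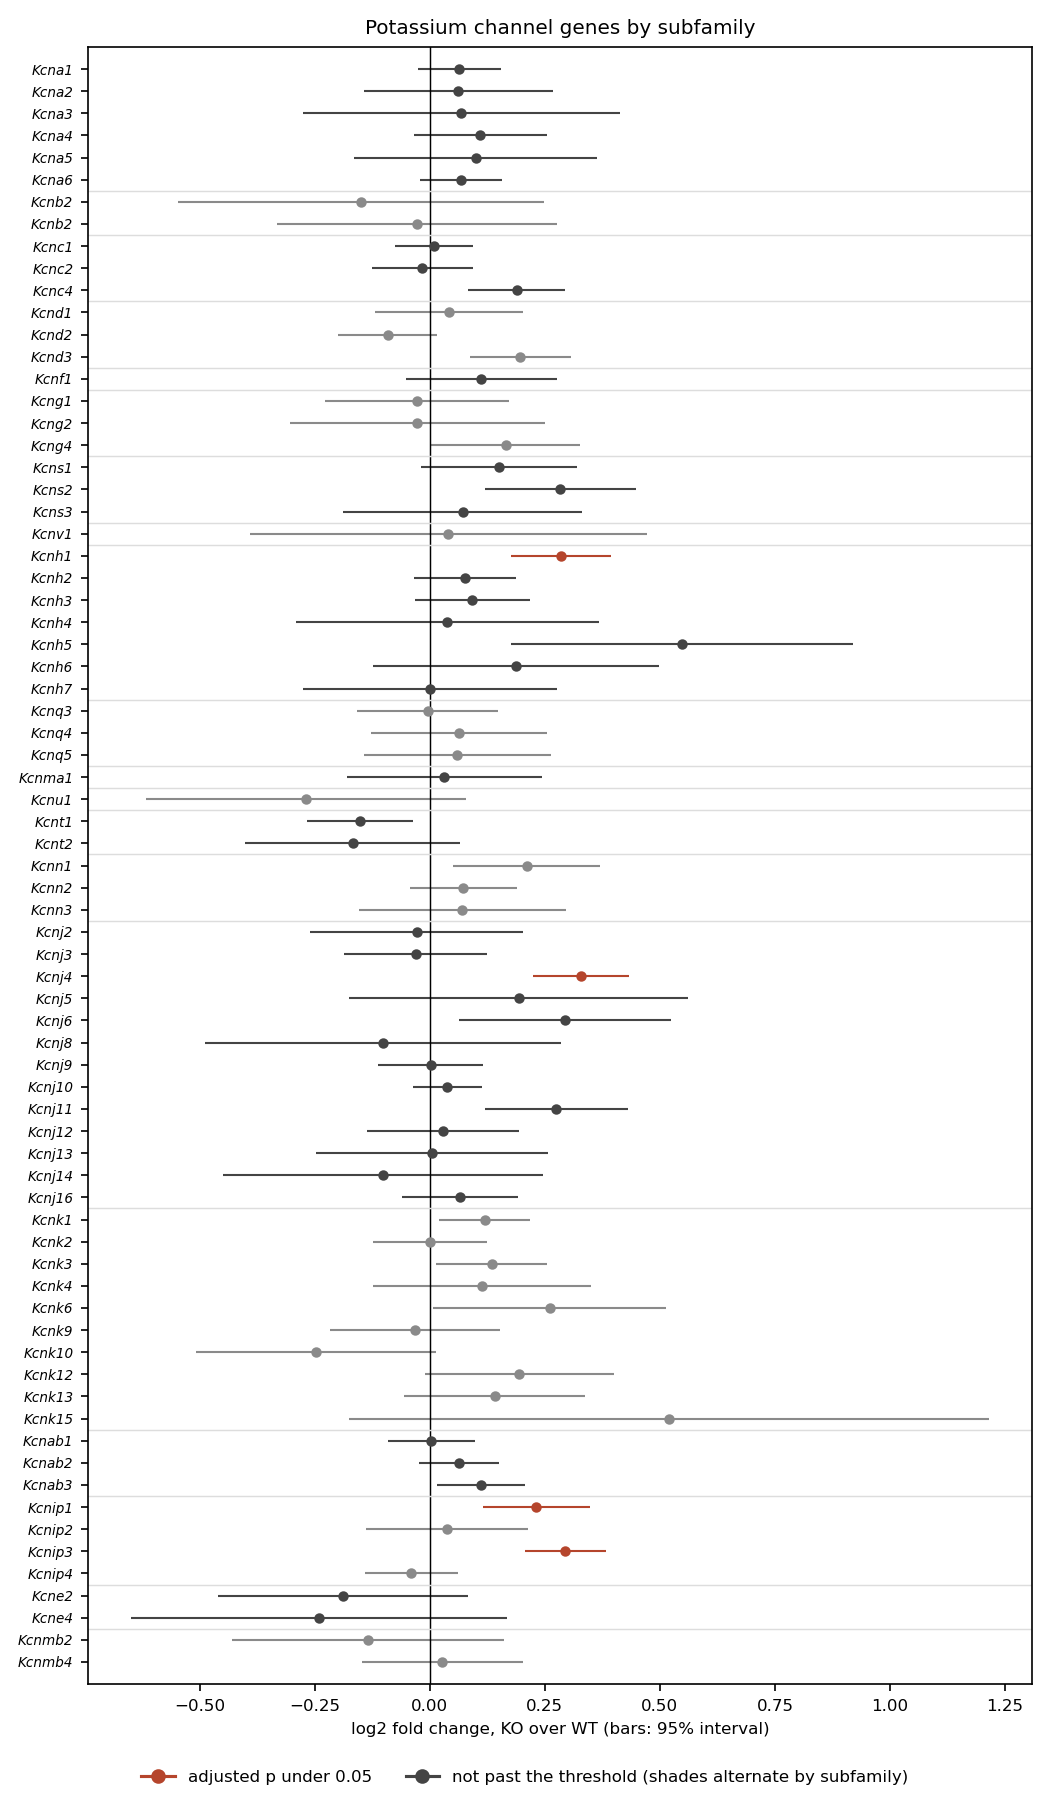
Log2 fold change, KO over WT as labelled, for 73 of the 76 genes, in the order of the subfamilies, with 95% intervals as bars. The intervals of 16 of these genes lie above 0, that of Kcnt1 lies below 0 and those of 56 include 0; the 4 genes past the threshold are in red.

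Silent subunits form no channel of their own and join Kv2 subunits to change their gating. Kcns2 (Kv9.2) had 31.8, 24.97, 29.0 and 28.2 CPM in the libraries labelled KO, against 24.1, 25.3, 20.8 and 23.7 CPM in those labelled WT. KO replicate 2 lay just under WT replicate 2, and the adjusted p by edgeR was 0.088 at 0.28 (SE 0.08), or 0.0222 without KO replicate 2 and 0.311 without WT replicate 3. It also passed with GC content and length trends removed. Kcnf1 (Kv5.1) had 126, 101, 130 and 133 CPM in the libraries labelled KO, against 112, 122, 110 and 109 CPM in those labelled WT. Its log2 fold change was 0.11 (SE 0.08) at an adjusted p of 0.594 by edgeR. That p was 0.0489 without KO replicate 2, the only library labelled KO below the WT range, and 0.806 without KO replicate 4.

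Kcnv1 (Kv8.1) had 59.6, 39.8, 59.1 and 57.7 CPM in the libraries labelled KO, against 62.6, 47.9, 41.9 and 59.6 CPM in those labelled WT. The spread within each group was larger than the difference between them, which was 0.04 (SE 0.18). Kcng4 (Kv6.4) averaged 56.6 ± 6.02 CPM in the libraries labelled KO and 50.5 ± 4.45 CPM in those labelled WT, at 0.16 (SE 0.08), and Kcns1 (Kv9.1) averaged 13.8 ± 0.80 CPM in the libraries labelled KO and 12.5 ± 0.70 CPM in those labelled WT, at 0.15 (SE 0.08). Of the 8 silent subunit genes 6 had a positive log2 fold change, and 0 passed by edgeR with all libraries, DESeq2 or limma-voom, with 2 at an unadjusted p under 0.05.

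Kv7 channels carry the M current, a brake on repetitive firing that acetylcholine removes. Kcnq3, a pore subunit of these channels, averaged 168 ± 11.03 CPM in the libraries labelled KO and 168 ± 17.8 CPM in those labelled WT. Its log2 fold change of -0.005 (SE 0.07) changed sign in 6 alternatives.

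Calcium-activated channels, which follow the calcium that enters with each spike, held no gene that passed by edgeR, DESeq2 or limma-voom, and 1 of the 6 SK and BK genes had an unadjusted p under 0.05. Kcnn1 (SK1) had 15.3, 15.4, 17.4 and 17.2 CPM in the libraries labelled KO, against 14.5, 14.3, 13.7 and 14.2 CPM in those labelled WT, with no overlap and an adjusted p of 0.229 by edgeR at 0.21 (SE 0.08). Kcnn2 (SK2), with the highest level per length of the SK genes, averaged 38.2 ± 1.09 CPM in the libraries labelled KO and 36.3 ± 1.69 CPM in those labelled WT, at 0.07 (SE 0.06). Kcnma1, the pore of the large-conductance BK channel, averaged 69.4 ± 9.0 CPM in the libraries labelled KO and 68.0 ± 6.44 CPM in those labelled WT, at 0.03 (SE 0.10), with a change of sign in 4 alternatives. Its neuronal beta subunit Kcnmb4 averaged 13.7 ± 0.80 CPM in the libraries labelled KO and 13.4 ± 1.12 CPM in those labelled WT, at 0.03 (SE 0.08), also with a change of sign in 4. Kcnmb4 shares 20.85% of its exon bases with an antisense gene and 10.68% with another. Kcnu1, the pH-gated Slo3 pore known from sperm, was low, at 2.40 ± 0.19 CPM in the libraries labelled KO and 2.87 ± 0.51 CPM in those labelled WT.

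Leak channels of the 2-pore-domain family pass potassium at rest. Kcnk1 (TWIK1), with the highest level per length among them, had 132, 121, 129 and 119 CPM in the libraries labelled KO, against 122, 112, 111 and 116 CPM in those labelled WT. The groups overlapped and the adjusted p by edgeR was 0.284, at 0.12 (SE 0.05). Kcnk6 (TWIK2) had 5.37, 6.62, 5.71 and 5.28 CPM in the libraries labelled KO, against 4.54, 5.21, 4.65 and 4.79 CPM in those labelled WT, without overlap but with an adjusted p of 0.38 by edgeR at 0.26 (SE 0.12). Of the 10 leak channel genes 7 had a positive log2 fold change, from -0.25 for Kcnk10 (TREK2) to 0.52 for Kcnk15. Kcnk15, the lowest of the members per length, averaged 1.03 ± 0.35 CPM in the libraries labelled KO and 0.685 ± 0.325 CPM in those labelled WT, and its log2 fold change had an SE of 0.33.

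Among the other auxiliary subunits, Kcnab3, a beta subunit of Kv1 channels, had 80.8, 82.5, 79.4 and 87.1 CPM in the libraries labelled KO, against 77.2, 78.7, 73.2 and 76.3 CPM in those labelled WT. It did not overlap between the groups and did not pass, at 0.11 (SE 0.05) and an adjusted p of 0.307 by edgeR. Kcnab2, the main brain beta subunit, averaged 453 ± 15.95 CPM in the libraries labelled KO and 433 ± 21.5 CPM in those labelled WT, at 0.06 (SE 0.04). The small membrane subunit Kcne2, which is abundant in the choroid plexus, averaged 4.92 ± 0.52 CPM in the libraries labelled KO and 5.65 ± 0.74 CPM in those labelled WT, at -0.19 (SE 0.13), and Kcne4 had -0.24 (SE 0.19). Of the 11 auxiliary genes 7 had a positive value (median log2 fold change 0.03) and 2 passed. Of the 65 pore-forming genes 47 had a positive value (median 0.07) and 2 passed. Over all tested genes 48% had a positive value and 1.43% passed. A difference between auxiliary and pore-forming genes was not tested.

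Levels per length, the mean CPM divided by the kilobases of the longest coding transcript, set the order of the members. Over all 8 libraries Kcnab2 was the highest, at 113 CPM per kb, followed by Kcna1 at 75.4, with Kcnj10 at 64.8 and Kcnk1 at 53.9 CPM per kb also near the top. The median of the 75 genes with a length was 5.97 CPM per kb, and the lowest was 0.447, for Kcnk15. Summed by subfamily, the inward rectifiers were highest, at 216 ± 5.72 CPM per kb in the libraries labelled KO and 202 ± 2.38 in those labelled WT. The Kv1 beta subunits came next, at 190 ± 3.004 CPM per kb in the libraries labelled KO and 182 ± 5.78 in those labelled WT. KChIP genes summed to 152 ± 8.04 CPM per kb in the libraries labelled KO and 140 ± 2.49 in those labelled WT, and Kv3 genes to 152 ± 3.68 in those labelled KO and 147 ± 2.28 in those labelled WT. The KChIP and Kv3 sums did not differ beyond their spread in the libraries labelled KO. In those labelled WT the Kv3 sum was the higher, by more than either SD.

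**Figure D4:**
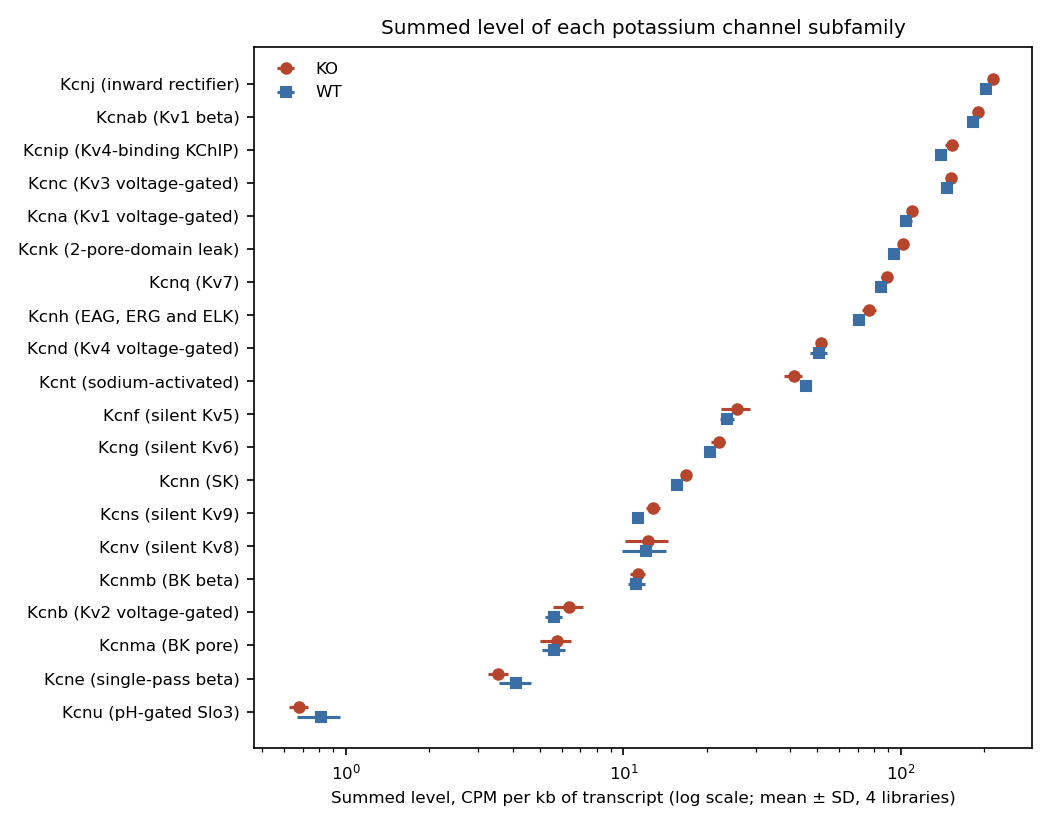
Summed level of each potassium channel subfamily in CPM per kb of transcript, on a log axis, as mean ± SD of 4 libraries labelled KO (circles) and 4 labelled WT (squares). Levels run from the inward rectifiers, at 216 for KO and 202 for WT, down to Kcnu1, at 0.679 for KO and 0.811 for WT.

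Over all 76 genes the summed level, after TMM scaling, was 5814.3, 5674.5, 5814.6 and 5935.3 CPM in the libraries labelled KO. In those labelled WT it was 5632.3, 5560.9, 5452.4 and 5638.2 CPM. Every library labelled KO lay above every library labelled WT. In all, 54 genes (71.1%) had a positive log2 fold change, where 48% of all tested genes did, and the median was 0.06 beside -0.0049 over all tested genes. The groups did not overlap in 9 genes, all higher in the libraries labelled KO, which is 11.8%, beside 7.67% of all tested genes (4.28% higher and 3.4% lower). The 4 that rose were among them, as were Kcnn1, Kcnj11, Kcnk6 and Kcnab3. No member passed 1.5-fold, and 8 were higher and 1 lower by more than 1.2-fold. The 95% interval lay within 1.5-fold in both directions for 72 genes and within 1.2-fold for 33.

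Libraries of a group were not alike in these genes. KO replicate 2 was the lowest of the libraries labelled KO in 33 of the 76 genes (43.4%, beside 27.3% of all tested genes), and WT replicate 3 the lowest of those labelled WT in 27 (35.5%, beside 21.8%). Kcnv1, Kcna2, Kcnma1, Kcnf1, Kcnh5 and Kcnj6 were all lowest in KO replicate 2 among the libraries labelled KO. Of the 10 genes that passed without that library, Kcnip3, Kcnj4 and Kcnh1 also passed with it, while Kcnd3, Kcns2, Kcnh5, Kcnf1, Kcnj6 and Kcnt1 were among those that did not.

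**Figure D5:**
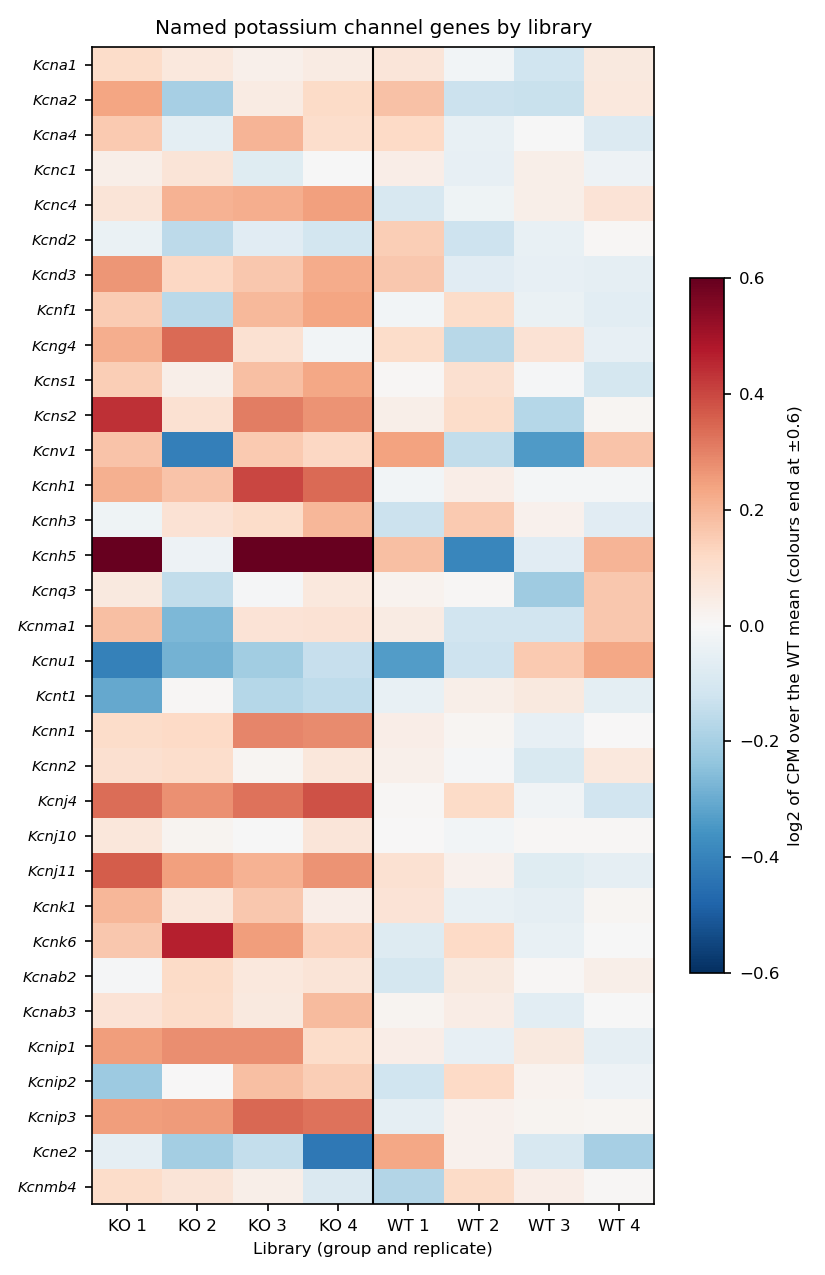
Log2 of the CPM in each library over the mean of the libraries labelled WT, for 33 potassium channel genes down the page, with the libraries labelled KO left of the line and those labelled WT right of it; colours end at ±0.6. Kcnip3, Kcnj4 and Kcnh1 are above 0 in every library labelled KO, while Kcnv1 and Kcna2 are below 0 in KO replicate 2 alone of that group.

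Channels known for epilepsy in people or for a dependence on neuronal activity were also counted as groups. Of 10 members listed as epilepsy-linked, Kcnh1 rose and 9 did not pass, beside the 1.43% of all tested genes that passed, and 8 had a positive value, with a median log2 fold change of 0.05. That list did not hold Kcnt1, and with Kcnt1 added 8 of 11 had a positive value, 1 passed and the median was 0.04. Of the 5 activity-linked members, Kcna4, Kcnj4, Kcnip3, Kcnv1 and Kcnf1, all 5 had a positive value at a median of 0.11, and Kcnj4 and Kcnip3 rose, beside 48% of all tested genes with a positive value and 1.14% that rose. These lists were drawn up with results of these data known, and Kcnip3 and Kcnj4 have the lowest p of all members by edgeR. The shares of all tested genes set beside the lists are therefore no test of a link to epilepsy or to activity. Among 24 activity-regulated genes outside the family 6 rose and 18 did not pass, at a median of -0.03. Of the 24, 9 had an unadjusted p under 0.05 by edgeR, beside 12.6% of all tested genes. Their summed level was 1380 to 1620 CPM in the libraries labelled KO and 1020 to 1400 CPM in those labelled WT. The part of this list in the values of the channels was not tested.

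Proteins that anchor, traffic or assemble with potassium channels held 29 tested genes of 32 listed. None passed by edgeR or limma-voom, 6 had an unadjusted p under 0.05, and DESeq2 called 2, Akap5 and Nedd4l. Nedd4l, a ubiquitin ligase that removes Kv7 channels from the membrane, averaged 145 ± 7.71 CPM in the libraries labelled KO and 127 ± 7.38 CPM in those labelled WT, at 0.19 (SE 0.05) and an adjusted p of 0.0658 by edgeR. It passed without KO replicate 2 or WT replicate 1. Akap5, the anchor of kinases at Kv7 channels, averaged 84.6 ± 11.6 CPM in the libraries labelled KO and 67.5 ± 4.16 CPM in those labelled WT, at 0.33 (SE 0.09) and an adjusted p of 0.144 by edgeR, and passed without KO replicate 2. Dpp6 and Dpp10, which complete the Kv4 complex with KChIP, had 0.00 (SE 0.03) and -0.01 (SE 0.06), and Abcc8, the partner of Kcnj11, had -0.11 (SE 0.05).

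Markers of brain regions and cell types were read beside these genes. Of 16 striatal markers, Drd1a, Adcy5 and Ppp1r1b rose and 13 did not pass, beside 1.14% of all tested genes that rose. An unadjusted p under 0.05 by edgeR was found for 7 of the 16, beside 12.6% of all tested genes. The median was 0.11. The summed level of these markers was 1890 to 1930 CPM in the libraries labelled KO and 1670 to 1830 CPM in those labelled WT. Without both libraries numbered 1, 0 of the 16 passed. Of 16 cerebellar markers 0 passed and 1 had an unadjusted p under 0.05, at a median of -0.12 and a sum of 2770 to 3240 CPM in the libraries labelled KO and 2910 to 3520 CPM in those labelled WT. Of 15 hippocampal markers, Wfs1 rose, Dsp fell and 13 did not pass, with 5 at an unadjusted p under 0.05. Medians were negative for oligodendrocyte (-0.07), vascular (-0.11) and microglia markers (-0.01). Of 14 oligodendrocyte markers 0 were called, with 5 at an unadjusted p under 0.05. Among vascular markers Slco1c1 fell and 13 of 14 did not pass, also with 5 at that level. Of 10 microglia markers 0 were called, with 3 at that level. Over all tested genes, 1.43% passed and 12.6% had an unadjusted p under 0.05. DESeq2 and limma-voom also called 0 of the cerebellar, oligodendrocyte and microglia markers. The part of these markers in the values of Kcnip3, Kcnj4, Kcnh1 and Kcnip1 was not tested.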

How the data were processed

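Polyadenylated RNA was extracted with Trizol and made into libraries with a stranded kit, per the labels' protocols. The deposited table holds expected counts per gene, which the authors left unscaled between libraries; 91.5% of its values were whole within 0.001. TopHat2 2.0.9, edgeR and the GRCm38 build are named in the submitters' processing notes. Which counting program and strand setting were used is not given in the sources used here. Reads of the 25 members with an overlapping gene are thus not fully separable.

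Counts were rounded, filtered with filterByExpr, scaled by TMM and compared in edgeR 4.0.16 under R 4.3.3 (glmQLFit, robust, glmQLFTest, no covariate) over all 15902 genes kept (Benjamini-Hochberg, threshold 0.05). Each SE comes from the coefficient and its F statistic, CPM are mean ± SD over 4 libraries, and intervals are at 95%. Positions and lengths are from GENCODE on GRCm38. DESeq2 1.42.0, limma-voom (limma 3.58.1), other scalings and filters, a GC and length correction, the replicate number as a block and leaving out libraries were alternatives. The code was tested on simulated data, with changed genes drawn from those above a low level. Of 50 genes changed by 1.25-fold 62% were recovered, and of 50 changed by 1.5-fold 94%, with 14 false calls over all sizes. A gene that did not pass may therefore still differ by as much as those that rose.

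Members and lists were chosen with earlier results of these data known. Named genes were those past the threshold or not overlapping, the 12 lowest p, the highest per subfamily, Kcnt1 and the epilepsy- and activity-linked members, and 36 met this. Further members were named after their values were seen. Of these members 3 are counted in the totals but not reported here by name. Replicates differed beyond sampling noise (chi-square per degree of freedom 2.44 to 5.01), and all 8 were kept. The labels do not say whether libraries come from separate animals, so p-values measure only the spread among these libraries, which may be technical. The common coefficient of variation among libraries in the fit, beyond counting noise, was 5.38%.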

Additional observations from a re-analysis of the deposited data

Results flagged for a closer look

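In 5 of 74 sets of 4 libraries, taken for Uhrf2 and 36 named genes in each group, 1 library lay far from the other 3, where chance gives about 1 in 20 sets. Uhrf2 was low in WT replicate 2, at 47.7 CPM, with the other libraries labelled WT between 57.2 and 58.9 CPM. Kcnd3 was high in WT replicate 1, at 147 CPM, with the others between 125 and 127 CPM, and its adjusted p by edgeR was 0.00652 without that library. Kcnv1 was low in KO replicate 2, at 39.8 CPM, with the others labelled KO between 57.7 and 59.6 CPM. Kcnh1 in WT replicate 2, at 75.4 CPM with the others between 72.5 and 72.7 CPM, and Kcnip3 in WT replicate 1, at 107 CPM with the others between 112 and 113 CPM, were set apart from a narrow range and stayed below every library labelled KO.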

How the results depend on the processing

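Kcnip3, Kcnj4 and Kcnh1 passed in all 18 alternatives, and Kcnip1 in 9. The labels do not tie same-numbered libraries together, and the numbers were not taken as pairs. Correlations of same-numbered deviations were 0.21, 0.077, 0.024 and 0.067, all positive, and 5 of 8 libraries correlated best with their own number, a hint from the data, not the design. With the replicate block, 495 genes (3.11% of those tested) and 11 potassium channel genes (14.5%) were called, where 1.43% and 5.26% were called without it. Of the 11, 10 were higher and 1 lower (Kcnt1). Kcnh5, Kcns2, Kcnc4, Kcnd3 and Kcnj11 were among those gained. With the block and GC content and length trends removed as well 543 (3.41%) and 10 (13.2%) were called, without Kcnj11. Leaving out 1 library gave 110 to 324 genes, 3 to 10 potassium channel genes (10 without KO replicate 2) and 0 to 2 partner genes. Partner genes called were 2 with DESeq2, 2 with the block, 2 with the GC and length correction and 2 with both, beside 0. The median of the members ran from 0.046 to 0.083 and the Uhrf2 value from 0.61 to 0.71 without 1 library. The sign changed in at least 1 alternative for 26 members, of which 0 passed in any fit; 2 of them had a size of at least 0.1 with all libraries, Kcnj14 (-0.10, running from -0.26 to 0.0096) and Kcnj8 (-0.10, from -0.23 to 0.061). Kcnip4 ran from -0.062 to 0.0057, Kcnj3 from -0.075 to 0.037, Kcnj9 from -0.023 to 0.055 and Kcnh7 from -0.063 to 0.092. With GC and length trends removed, Kcnc1 was at -0.0059, Kcnq3 at 0.028 and Kcnmb4 at -0.022, and with the block too at -0.0067, 0.032 and -0.024. Kcnq3 was at 0.0014 by limma-voom. Without 1 library, Kcnc1 ran from -0.013 to 0.040, Kcnv1 from -0.061 to 0.16, Kcnq3 from -0.069 to 0.054, Kcnma1 from -0.0199 to 0.12, Kcnip2 from -0.013 to 0.11 and Kcnmb4 from -0.016 to 0.067. Without both libraries numbered 1, added after seeing the data, Kcnma1 was at -0.00022 and Kcnmb4 at -0.040. The causes were not tested. Of the members 2 averaged under 2 CPM, where 3 counts came to as much as 0.252 CPM; the part of depth in their intervals was not tested.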
